A study of Mus musculus with 12 samples.

Results

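The data compared here are the 4 vehicle-treated libraries of a 12-library RNA sequencing series on mouse embryonic fibroblasts (MEFs), cells grown out of whole embryos taken at embryonic day 13.5 and used at passage 4 to 10. The wild-type group (WT) and the group lacking the kinases LATS1 and LATS2 (double knockout, DKO) each hold 1 library harvested after 2 days in the solvent DMSO and 1 after 4 days, so n = 2 per genotype. The other 8 libraries received the inhibitor MGH-CP1 at 1 uM. They entered the choice of genes tested, the scaling, the day terms and the spread between samples. Their levels are compared only where named. All 32168 genes in the count table were considered, and 16595 had enough reads in the 12-library series to be tested. Some of these had few reads in the 4 DMSO libraries, which alone kept 15031 genes. All 4 libraries share the embryonic stage, the passage range and the solvent. The labels do not say how the knockout was made, whether a genotype is 1 line or clone, or whether the libraries came from separate cultures, so the p-values measure only the spread between these samples, and genotype and cell line of origin cannot be told apart.

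LATS1 and LATS2 are the kinases that end the Hippo cascade: they phosphorylate the coactivators YAP and TAZ and keep them out of the nucleus, where they would otherwise act through the TEAD transcription factors. Embryonic fibroblasts are a mixture of mesenchymal cells that carry a record of their position in the embryo in the homeobox and T-box genes they express. They are also a major source of secreted growth factors, chemokines and matrix. The questions put to these libraries were which transcription factors, secreted factors, surface receptors, lineage markers and non-coding RNAs separated the genotypes beyond the Hippo targets.

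The libraries held 18531086 to 21210450 assigned reads, and 20682 to 23119 genes had at least 1 read, with the fewest in the DKO library of day 2. Levels below are CPM, read counts relative to the scaled total of each library, given in the order day 2, day 4, and differences are log2(DKO/WT) with their standard error (SE) from edgeR's quasi-likelihood test, Benjamini-Hochberg adjusted over all genes tested. CPM are not divided by gene length, so they compare a gene between libraries and not different genes. At an adjusted p under 0.05, 5426 genes rose and 5783 fell in the DKO libraries, 32.7% and 34.8% of those tested and 67.5% together. By 4-fold or more, 695 rose (4.19%) and 2096 fell (12.6%). For 81% of all genes tested the DKO and WT libraries did not overlap, 39.2% with both DKO libraries above and 41.8% with both below. The median difference over all genes tested was -0.06.

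The targeted genes were checked first. Lats1 measured 117 and 111 CPM in the WT libraries and 16.2 and 25.2 CPM in the DKO libraries, a log2 difference of -2.48 with an SE of 0.12 (edgeR adjusted p = 2.45e-09). Lats2 measured 65.7 and 60.1 CPM in WT against 17.9 and 17.8 CPM in DKO (log2 difference -1.82, SE 0.10, edgeR adjusted p = 4.77e-09). Neither gene was absent, and gene-level counts do not show whether part of either transcript was missing. The share of reads on ribosomal RNA genes differed between these libraries, at 0.0319% and 0.0330% in WT and 0.194% and 0.122% in DKO. That on microRNA genes did too, at 0.00823% and 0.00810% against 0.0843% and 0.0651%. Both shares also varied within a genotype. The WT inhibitor repeats of day 2 had 2.61% and 0.0333% on ribosomal RNA genes, and 0.469% and 0.00908% on microRNA genes. Those repeats are among the libraries that set the spread for the tests. Median differences also followed transcript length, from 0.191 over the genes of 56 to 1857 bases to -0.308 over those of 7004 bases or more. The part of RNA composition and of length in the results below was not tested. In bulk RNA, fewer cells of a type and less RNA per cell cannot be told apart.

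The labelled cell type was then compared with its markers. Of 24 fibroblast markers tested, 23 fell and only Vim, the intermediate filament vimentin, rose in the DKO libraries, and the list's median difference was -2.81. The list was chosen with earlier results of these data known, so its count is a description and not a test. Thy1, the surface glycoprotein commonly used to sort fibroblasts, measured 119 and 121 CPM in WT and had no read in either DKO library, at least 1369-fold lower (against a floor of 3 counts over the group; floors and intervals cover counting error only). Lum, the matrix proteoglycan lumican, went from 143 and 154 CPM to 0.0582 and 0.292 CPM. Col3a1, a fibrillar collagen chain, went from 3519 and 3500 CPM to 33.2 and 23.7 CPM. Vim, which many cell types express, measured 3093 and 3129 CPM against 4939 and 4042 CPM. By 4-fold or more, 14 of the 24 fell, and their summed level per length (TPM, the length-scaled unit) was 17620 and 17250 in WT and 6574 and 6529 in DKO. The rise of Vim did not pass the test on TPM. Since the DKO libraries go against the label on most of these markers, they are named below by genotype.

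Lists for other lineages moved in both directions. Their counts are to be read beside the 32.7% higher and 34.8% lower of all genes tested, and differences from those shares were not tested. Of 10 mesothelial markers tested, 6 rose and 1 fell (60% and 10%, median 2.21). Msln, the surface protein mesothelin, rose from 5.38 and 4.87 CPM to 176 and 194 CPM. Upk3b, a uroplakin of the mesothelium and bladder, rose from 0.978 and 0.640 CPM to 9.31 and 6.196 CPM. Rspo1, a secreted enhancer of Wnt signalling, rose from 2.40 and 2.76 CPM to 5.76 and 5.61 CPM. Against these, Wt1, a defining transcription factor of mesothelium, had no read in WT and 4 and 2 reads in DKO, and Upk1b had 1 read in all 4 libraries together. Without the WT library of day 2 the call of Rspo1 was lost.

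The epithelial list was split, with 7 of 19 tested markers higher and 7 lower (median -0.20). These shares, 36.8% and 36.8%, were near the 32.7% and 34.8% of all genes tested. Among those that rose were the desmosomal plakophilins Pkp1, from 0.685 and 0.738 CPM to 144 and 108 CPM, and Pkp2, from 5.43 and 6.59 CPM to 99.6 and 72.4 CPM. The junction protein Perp rose from 17.8 and 16.7 CPM to 178 and 136 CPM, and E-cadherin, Cdh1, from 0.342 and 0.492 CPM to 7.27 and 6.14 CPM. Krt7, a simple-epithelium keratin, rose from 1.47 and 3.64 CPM to 62.3 and 54.3 CPM. In contrast the epithelial adhesion molecule Epcam, with 13 and 8 reads in WT, had 1 and 0 reads in DKO. The desmosome linker Dsp fell from 33.1 and 28.4 CPM to 14.96 and 9.70 CPM, and the protease inhibitor Spint2 from 21.3 and 20.1 CPM to 3.14 and 3.22 CPM. Both DKO libraries lay on the same side of both WT libraries for each of these genes, as for 81% of all genes tested. The rule that named Pkp1, Pkp2, Krt7, Dsp and Spint2 required it.

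Further lists were mixed in the same way. Among 10 endothelial markers 2 rose and 5 fell (20% and 50%, median -1.07). Those that rose were the VEGF receptors Flt1 (13.99 and 13.2 CPM against 110 and 88.8 CPM) and Kdr (12.3 and 10.6 CPM against 71.3 and 56.8 CPM). The junction markers Pecam1 and Cdh5 had at most 8 reads in any library, and the endothelial ETS factor Erg fell, from 9.88 and 8.56 CPM to 0 and 0.0585 CPM. Tek, Eng, Plvap and Egfl7 fell as well, Plvap from 6.46 and 8.27 CPM to 0.524 and 1.40 CPM. Of 7 macrophage markers tested 4 rose and 3 fell (57.1% and 42.9%). Among those that rose, Csf1r had 11 and 6 reads in WT against 36 and 28 in DKO. Lyz2, another of them, had 7 and 4 reads against 19 and 16. Among the 3 that fell, Cd14 went from 9.29 and 10.8 CPM to 2.1 and 1.29 CPM. Cd74, another of the 3, went from 9.15 and 7.68 CPM to 3.38 and 3.45 CPM. The pan-leukocyte gene Ptprc had 2 reads in all 4 libraries together, and the macrophage markers Adgre1 and C1qa had none. Among 12 neural markers 5 rose and 3 fell (41.7% and 25%, beside 32.7% and 34.8% of all genes tested), with the intermediate filament nestin, Nes, at 57.5 and 61.6 CPM in WT and 408 and 248 CPM in DKO, and the adhesion molecule Ncam1 at 29.1 and 29.7 CPM against 132 and 92.9 CPM. Stmn2, a neuronal tubulin-binding protein, fell from 32.3 and 31.3 CPM to 2.27 and 3.10 CPM. Of 15 cartilage and bone markers 3 rose and 6 fell (20% and 40%). The chondrocyte factor Sox9 rose from 2.84 and 3.20 CPM to 19.3 and 26.8 CPM, and the collagen Col10a1 fell from 109 and 105 CPM to 24.4 and 30.8 CPM. Of 9 tendon and joint markers 1 rose and 5 fell (11.1% and 55.6%). The tendon factor Scx rose from 14.7 and 13.4 CPM to 41.4 and 44.7 CPM, while the tendon matrix gene Thbs4 fell from 50.8 and 48.8 CPM to 0.0582 and 0 CPM. Of 6 adipocyte markers 1 rose and 3 fell (16.7% and 50%). The adipocyte regulator Pparg rose from 2.20 and 2.90 CPM to 26.6 and 22.8 CPM, and its target Fabp4, a lipid carrier, fell from 23.6 and 21.5 CPM to 10.8 and 13.03 CPM.

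**Figure D1:**
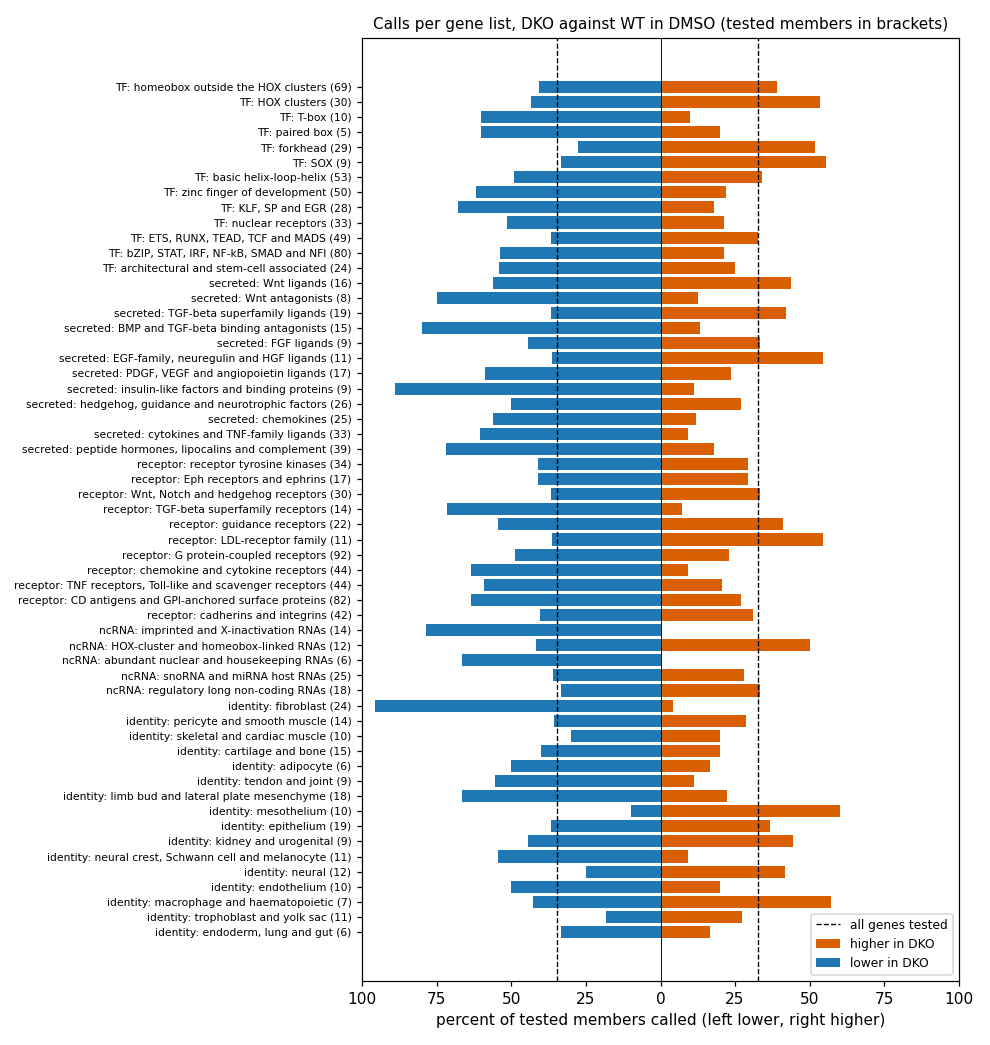
Percent of the tested members of each gene list called higher (orange, right) or lower (blue, left) in the DKO libraries in DMSO, with the number of tested members in brackets and dashed lines at the percentages over all genes tested (32.7% and 34.8%); lists with fewer than 5 tested members are left out. Fibroblast markers show 23 of 24 lower, and mesothelial markers 6 of 10 higher. The lists were chosen with earlier results of these data known.

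Transcription factors separated the genotypes in both directions. Of 469 tested factors, 145 rose and 228 fell (30.9% and 48.6%, beside 32.7% and 34.8% of all genes tested). By 4-fold or more, 44 rose (9.38% against 4.19% of all genes tested) and 101 fell (21.5% against 12.6%). The median difference was -0.34, beside -0.06 over all genes tested. The genes named with full statistics were picked by a size rule in each class; other members named to illustrate a family were picked after their values were seen.

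The factors that rose most were nearly silent in WT. Foxd1, a forkhead factor of the kidney stroma, measured 0.587 and 0.591 CPM in WT and 23.3 and 19.2 CPM in DKO (log2 difference 5.16, SE 0.26, edgeR adjusted p = 2.78e-09). Foxf1, a forkhead factor of gut and lung mesenchyme, measured 1.91 and 1.38 CPM against 36.3 and 28.3 CPM (4.29, SE 0.17, adjusted p = 2.86e-10). Eomes, a T-box factor of trophoblast and early mesendoderm, measured 0.440 and 0.148 CPM against 12.3 and 13.4 CPM (5.48, SE 0.45, adjusted p = 2.12e-07). The rule that named these 3 genes required both DKO libraries to stand above both WT libraries. Tlx2, a homeobox factor of neural crest derivatives, had 0 and 0.148 CPM in WT and 16.4 CPM in both DKO libraries, 222-fold higher (95% exact interval 75.7 to 1081). Hey2, a bHLH repressor downstream of Notch, measured 0.293 and 0.443 CPM against 8.79 and 9.99 CPM (4.65, SE 0.33, adjusted p = 5.79e-08). Bhlhe41, a circadian bHLH repressor, measured 1.61 and 2.21 CPM against 58.1 and 38.2 CPM (4.63, SE 0.22, adjusted p = 1.74e-09). Zic5, a neural zinc finger factor, measured 0.391 and 0.443 CPM against 7.51 and 9.47 CPM (4.32, SE 0.25, adjusted p = 7.85e-09). These 7 factors come from the forkhead, T-box, homeobox, bHLH and ZIC families.

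Counts by family follow, to be read beside the 32.7% higher and 34.8% lower of all genes tested; differences between families were not tested. Of 29 forkhead factors 15 rose and 8 fell (51.7% and 27.6%). Foxp2, a forkhead factor of brain and lung, fell from 28.7 and 29.1 CPM to 0.116 and 0.994 CPM. Of 9 SOX factors 5 rose, with Sox11 at 4.01 and 3.54 CPM against 72.2 and 61.1 CPM, and 3 fell. The bHLH list gave 18 higher and 26 lower of 53, with the higher share of 34.0% near that of all genes. Hey1, the paralogue of Hey2, rose from 1.91 and 1.77 CPM to 17.2 and 15.8 CPM, and the Notch-responsive Hes1 rose from 11.6 and 11.4 CPM to 30.3 and 30.7 CPM. On the falling side stood Ebf1, from 54.1 and 55.1 CPM to 1.57 and 2.86 CPM, and the melanocyte regulator Mitf, from 33.2 and 35.2 CPM to 0.698 and 1.05 CPM. Developmental zinc finger factors gave 11 higher and 31 lower of 50: the hedgehog effector Gli2 fell from 18.1 and 18.4 CPM to 2.27 and 2.69 CPM. KLF, SP and EGR factors gave 5 higher and 19 lower of 28, and Klf5, a factor of epithelial progenitors, was among the higher ones (24.2 and 24.8 CPM against 80.4 and 91.0 CPM). Nuclear receptors gave 7 higher and 17 lower of 33, and the clock-linked Rora fell from 58.1 and 62.1 CPM to 6.46 and 18.9 CPM.

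Factors of limb and lateral plate position were mostly lower. Of 18 tested, 12 fell and 4 rose (66.7% and 22.2%, beside 34.8% and 32.7% of all genes tested). Tbx4, the hindlimb T-box factor, measured 45.4 and 41.7 CPM in WT and 0.175 and 0 CPM in DKO, 498-fold lower (95% exact interval 170 to 2416). Tbx5, its forelimb counterpart, measured 34.8 and 42.5 CPM against 1.16 and 1.70 CPM (log2 difference -4.77, SE 0.18, edgeR adjusted p = 2.13e-10). The general limb mesenchyme factor Prrx1 fell from 997 and 1006 CPM to 204 and 239 CPM. Lmx1b, which specifies the dorsal limb, rose instead, from 28.4 and 27.1 CPM to 79.5 and 70.8 CPM.

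The 4 HOX clusters differed from each other in these counts, and the difference was not tested. Of 30 HOX genes tested, 16 rose and 13 fell (53.3% and 43.3%, beside 32.7% and 34.8% of all genes tested). HOX genes are collinear: within a cluster, low-numbered genes mark anterior and high-numbered genes posterior or distal positions. In the Hoxd cluster all 6 tested genes fell; Hoxd8 to Hoxd12 had no read in either DKO library, while Hoxd13 at one end of the cluster still measured 109 and 91.4 CPM against 233 and 247 CPM in WT. The bounds on the fall were at least 113-fold for Hoxd8, 153-fold for Hoxd10, 358-fold for Hoxd11 and 161-fold for Hoxd12. In the Hoxb cluster all 6 tested genes rose from low levels, with Hoxb9 at 1.56 and 0.689 CPM against 14.6 and 12.98 CPM. In the Hoxa cluster 9 of 11 rose, and the median log2 difference over the 11 was 1.04. Hoxa7 rose most (2.45 and 3.89 CPM against 33.1 and 23.3 CPM, log2 difference 3.16). Hoxa10 and Hoxa13 fell, the latter from 54.4 and 54.6 CPM to 11.8 and 14.7 CPM. In the Hoxc cluster 5 of 7 tested genes fell and Hoxc13 rose. Transcripts within a cluster overlap, and whether reads were counted by strand is not given in the sources used here, so neighbouring genes may share reads.

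**Figure D2:**
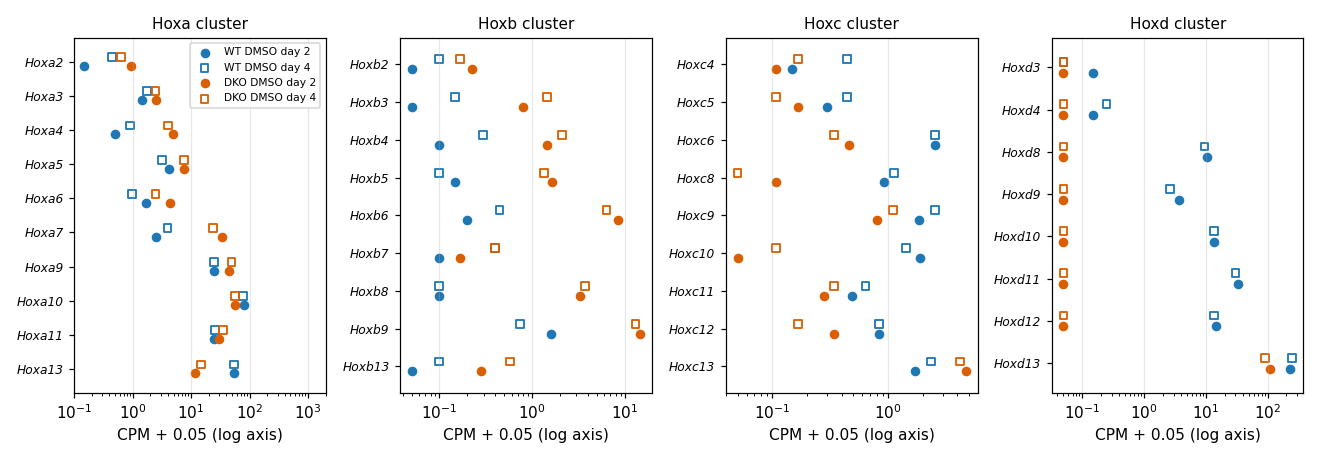
Levels of HOX genes in the 4 DMSO libraries, as CPM plus 0.05 on a log axis, in cluster order from low-numbered (top) to high-numbered genes; blue marks WT, orange DKO, filled circles day 2 and open squares day 4. In the Hoxd panel both DKO libraries sit at 0 from Hoxd8 to Hoxd12 but not at Hoxd13.

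Among the other factors that fell most, Batf2, a bZIP factor induced by interferon, had 11.0 and 9.89 CPM in WT and no read in DKO, at least 120-fold lower. Irf7, the interferon regulatory factor that amplifies interferon production, fell from 1041 and 1073 CPM to 1.28 and 1.70 CPM. The 3 most abundant factors that did not pass the test averaged over days did pass at 1 or both single days. Single-day results here and below come from another model, with a mean per group and 1 library per genotype and day. Its spread comes from the inhibitor repeats alone. Averaged over days, that model called 10 more named genes, so a pass at a single day does not show a day effect. Nfe2l1, a bZIP regulator of proteasome genes, measured 394 and 409 CPM in WT and 436 and 300.4 CPM in DKO (log2 difference -0.14, SE 0.10, edgeR adjusted p = 0.248). It was higher in DKO at day 2 (0.15, adjusted p = 0.0348) and lower at day 4 (-0.44, adjusted p = 3.90e-07). Klf6 measured 214 and 208 CPM against 212 and 178 CPM (averaged adjusted p = 0.353) and was lower at day 4 (-0.22, adjusted p = 0.00237). Nfic measured 284 and 276 CPM against 315 and 308 CPM (averaged adjusted p = 0.120), and was higher at day 2 (0.15, adjusted p = 0.0417) and at day 4 (0.16, adjusted p = 0.0394).

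**Figure D3:**
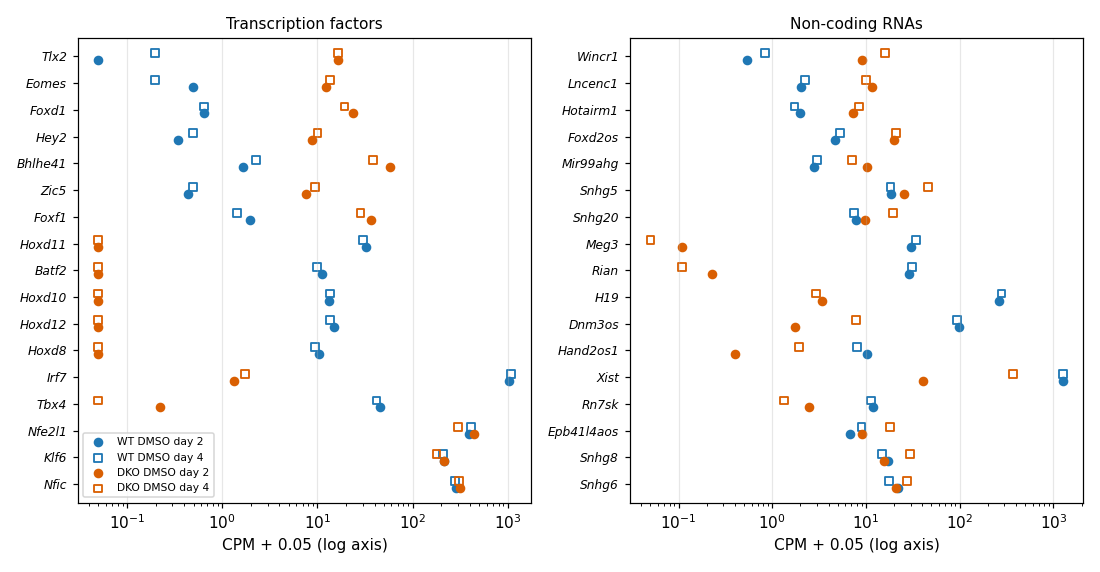
Levels of the named transcription factors (left) and non-coding RNAs (right) in the 4 DMSO libraries, as CPM plus 0.05 on a log axis; from top to bottom 7 higher, 7 lower and 3 not called. Xist, Dnm3os and Hand2os1 show the widest gap between the DKO libraries of day 2 (filled) and day 4 (open) among the lower RNAs.

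Secreted factors fell more often than they rose. Of 227 tested, 52 rose and 135 fell (22.9% and 59.5%, beside 32.7% and 34.8% of all genes tested). By 4-fold or more, 20 rose (8.81% against 4.19% of all genes tested) and 89 fell (39.2% against 12.6%). The median difference was -1.27. Ppbp, the platelet chemokine precursor also called Cxcl7, measured 2.40 and 2.85 CPM in WT and 80.4 and 102 CPM in DKO (log2 difference 5.12, SE 0.23, edgeR adjusted p = 8.31e-09). Pdgfb, a mitogen for mesenchymal cells, measured 4.06 and 3.30 CPM against 80.1 and 72.7 CPM (4.39, SE 0.15, adjusted p = 8.51e-11). Edn1, the vasoconstrictor endothelin precursor, measured 1.61 and 1.53 CPM against 29.3 and 36.4 CPM (4.38, SE 0.21, adjusted p = 1.63e-09). Nog, the BMP antagonist noggin, measured 3.91 and 3.69 CPM against 49.1 and 49.9 CPM (3.70, SE 0.17, adjusted p = 9.99e-10). Wnt4 rose as well, from 2.25 and 1.08 CPM to 40.7 and 32.3 CPM. Among the secreted factors named by size, Wnt7b and Wnt7a rose most. Wnt7b had 1 and 0 reads in WT and 599 and 482 in DKO. Wnt7a rose from 0.245 and 0.0984 CPM to 72.3 and 71.7 CPM (log2 difference 8.71, SE 0.31).

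Within signalling families, ligands moved in both directions. Counts by family are again to be read beside the 32.7% higher and 34.8% lower of all genes tested. All 16 tested Wnt-list ligands were called, 7 higher and 9 lower. Wnt16 had 18.8 and 16.8 CPM in WT and no read in DKO, at least 204-fold lower, and the R-spondins Rspo2 (232 and 243 CPM against 8.90 and 7.72 CPM) and Rspo3 (58.8 and 66.2 CPM against 3.20 and 3.45 CPM) fell while Rspo1 rose. Of 8 Wnt antagonists 6 fell, including Sfrp2, a soluble Frizzled-related inhibitor, from 261 and 273 CPM to 2.04 and 2.28 CPM, and 1 rose, the Wnt deacylase Notum (9.98 and 8.56 CPM against 29.7 and 33.5 CPM). In the PDGF family Pdgfa rose from 12.3 and 11.1 CPM to 78.9 and 64.2 CPM beside Pdgfb, while Pdgfd had 42.6 and 45.8 CPM in WT and no read in DKO, at least 506-fold lower. Among antagonists of BMP and TGF-beta 12 of 15 fell: Grem1 went from 825 and 828 CPM to 40.7 and 63.0 CPM, whereas Nog and Bmper rose. Of 9 insulin-like factors and their binding proteins 8 fell. Igfbp3, a carrier of insulin-like growth factors, measured 582 and 555 CPM against 0.756 and 0.234 CPM (log2 difference -10.22, SE 0.49, edgeR adjusted p = 3.83e-07), and Igf1 itself went from 136 and 130 CPM to 3.61 and 7.07 CPM.

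Axon guidance and neurotrophic ligands also divided, 7 higher and 13 lower of 26 (26.9% and 50%). The neurotrophin Bdnf rose from 30.8 and 32.0 CPM to 147 and 144 CPM, Gdnf from 12.3 and 13.4 CPM to 51.2 and 55.9 CPM and netrin Ntn1 from 20.8 and 20.6 CPM to 127 and 92.1 CPM. Slit3, a repulsive guidance cue, fell from 96.1 and 89.2 CPM to 2.97 and 4.74 CPM. The ligands of the TAM receptors, Gas6 (206 and 197 CPM against 10.0 and 10.8 CPM) and Pros1 (265 and 266 CPM against 12.3 and 12.5 CPM), fell together. Inhba, the activin A subunit, rose from 52.2 and 49.6 CPM to 273 and 528 CPM. Chemokines gave 3 higher and 14 lower of 25 (12% and 56%, beside 32.7% and 34.8% of all genes tested). The list of peptide hormones, lipocalins and complement gave 7 higher and 28 lower of 39 (17.95% and 71.79%). Cxcl12, the ligand of Cxcr4, fell from 905 and 900 CPM to 73.8 and 63.8 CPM. Tnfsf10, the death ligand TRAIL, had 10.3 and 12.9 CPM against none, at least 133-fold lower. The lipocalin Apod fell from 499.6 and 544 CPM to 0.175 and 0.292 CPM.

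The abundant secreted factors that did not pass the test averaged over days were Mif, a macrophage cytokine, at 312 and 325 CPM against 397 and 517 CPM (log2 difference 0.55, SE 0.23, edgeR adjusted p = 0.0562), Cxcl1 at 198 and 201 CPM against 167 and 236 CPM (adjusted p = 0.980), and osteopontin, Spp1, at 125 and 116 CPM against 52.1 and 104 CPM (adjusted p = 0.185). At single days Mif was higher in DKO at day 2 (0.35, edgeR adjusted p = 0.000115) and at day 4 (0.67, adjusted p = 5.11e-09). Spp1 was lower at day 2 (-1.26, adjusted p = 3.10e-07) and did not pass at day 4 (adjusted p = 0.219).

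**Figure D4:**
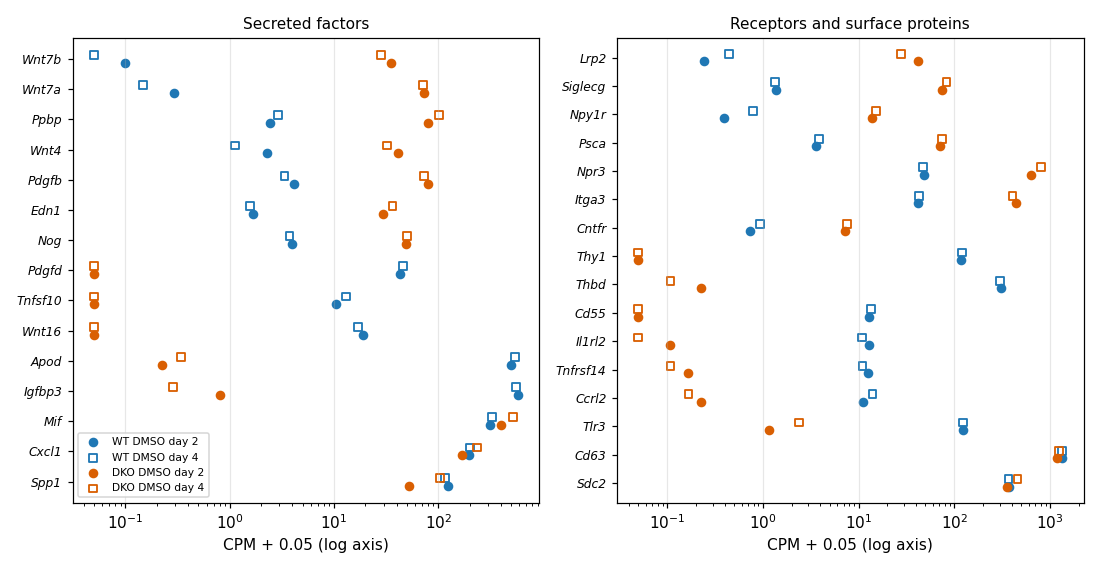
Levels of the named secreted factors (left) and receptors and surface proteins (right) in the 4 DMSO libraries, as CPM plus 0.05 on a log axis; from top to bottom 7 higher, 5 lower and 3 not called secreted factors, and 7 higher, 7 lower and 2 not called receptors. Genes at the left edge in orange, such as Pdgfd and Thy1, had no read in the DKO libraries.

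Promoters of 3 of the named genes are printed to show where short motifs of the TEAD or interferon-response type stand in them. The sequences are RefSeq, GRCm38.p6, the 250 bases before the annotated start, written 5′ to 3′ on the gene's strand. Capitals mark GGAATG, the core of the TEAD site, or its reverse CATTCC, and a pair of GAAA runs parted by a pair of any bases, the core of the interferon-response element, or its reverse on the other strand. The TEAD core in either direction was present in 14.4% of the promoters of 27025 genes in the table and the interferon-type core in 3.46%. The 3 were picked because they hold a match. Of the 42 genes named by size among factors, secreted factors and receptors, 31 had a promoter in the table. Of these, 6 held the TEAD core and 4 the interferon-type core. The TEAD core was in Hey2, Zic5, Ppbp, Edn1 and Cntfr, which rose, and in Ccrl2, which fell. The interferon-type core was in Eomes, Edn1 and Itga3, which rose, and in Tnfrsf14, which fell. A match is a description of the letters and not a bound site. The Hey2 stretch is chr10:30842784-30843033 on the minus strand, with its match 209 bases before the start. The Edn1 stretch is chr13:42301226-42301475 on the plus strand, with matches to the 2 motifs 207 and 78 bases before the start. The Tnfrsf14 stretch is chr4:154928078-154928327 on the minus strand, with its match 64 bases before the start.
Hey2: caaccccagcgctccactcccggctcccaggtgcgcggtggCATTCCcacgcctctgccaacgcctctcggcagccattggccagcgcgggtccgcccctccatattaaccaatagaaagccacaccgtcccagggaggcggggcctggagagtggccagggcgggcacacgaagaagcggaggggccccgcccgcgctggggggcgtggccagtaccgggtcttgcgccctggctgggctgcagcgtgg
Edn1: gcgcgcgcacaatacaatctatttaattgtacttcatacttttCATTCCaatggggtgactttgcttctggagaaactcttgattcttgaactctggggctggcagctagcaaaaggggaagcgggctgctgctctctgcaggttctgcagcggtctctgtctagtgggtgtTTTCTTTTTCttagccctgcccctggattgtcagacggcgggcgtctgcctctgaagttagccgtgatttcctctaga
Tnfrsf14: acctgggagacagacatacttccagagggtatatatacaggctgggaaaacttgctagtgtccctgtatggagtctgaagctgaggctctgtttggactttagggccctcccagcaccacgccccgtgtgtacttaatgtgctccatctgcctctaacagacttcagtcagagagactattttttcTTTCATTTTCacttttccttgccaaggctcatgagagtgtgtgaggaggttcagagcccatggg

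Receptors and surface proteins gave 110 higher and 226 lower of 432 tested, shares of 25.5% and 52.3%. Over all genes tested these were 32.7% and 34.8%. By 4-fold or more, 35 were higher (8.10% against 4.19% of all genes tested) and 125 lower (28.9% against 12.6%). The median difference was -0.66. Lrp2, the endocytic receptor megalin, rose from 0.196 and 0.394 CPM to 41.3 and 27.7 CPM, and its partner Cubn, cubilin, from 3.57 and 3.59 CPM to 11.4 and 11.98 CPM. Npy1r, a neuropeptide Y receptor, measured 0.342 and 0.738 CPM in WT and 13.7 and 15.3 CPM in DKO (log2 difference 4.75, SE 0.30, edgeR adjusted p = 2.10e-08). Npr3, the clearance receptor for natriuretic peptides, measured 47.8 and 47.6 CPM against 639.7 and 808 CPM (3.87, SE 0.31, adjusted p = 9.97e-06). Psca, a GPI-anchored surface antigen, measured 3.57 and 3.84 CPM against 70.5 and 75.2 CPM (4.30, SE 0.13, adjusted p = 3.10e-11). Cntfr, the receptor subunit for ciliary neurotrophic factor, measured 0.685 and 0.886 CPM against 7.22 and 7.54 CPM (3.22, SE 0.29, adjusted p = 4.56e-07). Siglecg, a sialic acid-binding lectin of B cells, rose from 1.32 and 1.28 CPM to 74.8 and 83.2 CPM.

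Of 42 tested cadherins and integrins 13 rose and 17 fell, shares of 31.0% and 40.5% near the 32.7% and 34.8% of all genes tested. The integrin subunits Itga3 and Itga6 were among those that rose, Itga3 from 41.5 and 42.6 CPM to 445 and 407 CPM and Itga6 from 38.5 and 36.3 CPM to 303 and 224 CPM. N-cadherin, Cdh2, rose from 64.6 and 64.2 CPM to 557 and 438 CPM, while the mesenchymal cadherin Cdh11 fell from 451 and 445 CPM to 100.1 and 122 CPM. The giant protocadherins Dchs1 (57.8 and 51.7 CPM against 0.989 and 0.643 CPM) and Fat4 (449 and 407 CPM against 83.0 and 64.2 CPM), a ligand and receptor pair that acts in planar polarity, fell together. Among Eph receptors and ephrins 5 rose and 7 fell of 17 (29.4% and 41.2%): Epha2 rose from 46.1 and 41.7 CPM to 219 CPM in both DKO libraries, and Epha4 fell from 33.6 and 31.8 CPM to 0.989 and 0.526 CPM.

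Of 14 receptors of the TGF-beta superfamily 10 fell and 1 rose (71.4% and 7.14%, beside 34.8% and 32.7% of all genes tested). The coreceptor Tgfbr3 fell (283 and 282 CPM against 47.0 and 41.6 CPM), while Tgfbr2 was not called at 220 and 219 CPM against 233 and 178 CPM. Pdgfra, the receptor for PDGF-A, fell from 463 and 450 CPM to 63.8 and 45.0 CPM. Among receptors for Wnt, Notch and hedgehog 10 rose and 11 fell of 30 (33.3% and 36.7%, near the shares of all genes tested): Fzd6 rose from 15.8 and 16.5 CPM to 112 and 87.2 CPM and the Notch ligand Jag2 from 2.35 and 2.12 CPM to 19.96 and 17.9 CPM, whereas the hedgehog coreceptors Boc (148 and 150 CPM against 3.49 and 2.28 CPM), Cdon (268 and 263 CPM against 54.7 and 40.0 CPM) and Gas1 (464 and 461 CPM against 119 and 106 CPM) fell together. Of 44 chemokine and cytokine receptors 28 fell and 4 rose (63.6% and 9.09%). The interleukin-6 family receptors Osmr and Lifr were among the lower ones, Osmr from 346 and 336 CPM to 25.7 and 36.2 CPM.

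Thbd, thrombomodulin, measured 305 and 303 CPM in WT and 0.175 and 0.0585 CPM in DKO (log2 difference -11.50, SE 0.26, edgeR adjusted p = 3.72e-12). Cd55, which speeds the decay of complement convertases, had 12.96 and 13.4 CPM in WT and no read in DKO, at least 151-fold lower. Of 44 tested TNF, Toll-like and scavenger receptors 26 fell and 9 rose (59.09% and 20.45%, beside 34.8% and 32.7% of all genes tested). Tlr3, the sensor of double-stranded RNA, went from 124 CPM in both WT libraries to 1.11 and 2.34 CPM, and Tlr2 from 198 and 215 CPM to 6.29 and 5.49 CPM. Tnfrsf14, the herpesvirus entry mediator, measured 12.4 and 10.9 CPM against 0.116 and 0.0585 CPM, 134-fold lower (95% exact interval 45.4 to 649.5). Il1rl2, an interleukin-36 receptor, measured 12.9 and 10.7 CPM against 0.0582 and 0 CPM, and the atypical chemokine receptor Ccrl2 11.0 and 13.98 CPM against 0.175 and 0.117 CPM. The tetraspanin Cd63 was not called at 1323 and 1348 CPM against 1189 and 1249 CPM (log2 difference -0.13, SE 0.08, edgeR adjusted p = 0.182), nor was the heparan sulphate proteoglycan Sdc2 averaged over days (adjusted p = 0.197), although it was higher at day 4 (0.31, edgeR adjusted p = 0.000139).

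By annotated biotype, 648 of 1469 long non-coding genes tested were called (44.1%) against 9858 of 13649 protein-coding genes (72.2%); long non-coding genes had fewer reads, and the difference in share was not tested. The 74 listed non-coding RNAs tested had a median difference of -0.42. Of them, 18 rose and 35 fell (24.3% and 47.3%, beside 32.7% and 34.8% of all genes tested). These counts moved with the processing: 8 and 7 rose on TPM with pseudocounts of 1 and 0.1, 9 rose without the DKO library of day 4, and 21 fell in the 4 DMSO libraries alone. The imprinted and X-inactivation RNAs held no member that rose, and 11 of 14 fell (78.6%, beside 34.8% of all genes tested). Meg3 and Rian, maternally expressed RNAs of the Dlk1-Dio3 domain, went from 30.0 and 34.4 CPM to 0.0582 and 0 CPM and from 29.1 and 31.2 CPM to 0.175 and 0.0585 CPM. H19, the RNA beside Igf2, went from 261 and 280 CPM to 3.38 and 2.86 CPM, and Kcnq1ot1 from 5.63 and 5.86 CPM to no read. The coding neighbours, looked at after these values were seen, fell as well: Dlk1 had 26.7 and 27.0 CPM in WT and no read in DKO, and Igf2 fell from 5.72 and 4.97 CPM to 0.0582 and 0 CPM. Of 11 imprinted coding genes looked up in this way 8 fell and 1 rose. Plagl1, a zinc finger factor, fell from 101.3 and 97.2 CPM to 1.34 and 3.97 CPM, and Mest, Ndn, Peg3, Sgce and Dio3 fell too. The imprinted genes Peg10 (18.4 and 16.7 CPM against 15.9 and 15.4 CPM) and Grb10 (333 and 344 CPM against 364 and 272 CPM) were not called, and Cdkn1c, in the Kcnq1ot1 domain, rose from 4.16 and 4.92 CPM to 18.3 and 10.9 CPM.

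A few long non-coding RNAs are given beside a neighbouring developmental factor. They were looked up after values were seen, and how often neighbours move alike was not tested. Fendrr, transcribed next to Foxf1, rose from 0.0978 and 0.0984 CPM to 4.13 and 3.51 CPM. Foxd2os rose from 4.65 and 5.27 CPM to 19.7 and 21.0 CPM beside Foxd2 (1.03 and 0.935 CPM against 7.57 and 5.44 CPM). Hotairm1, in the anterior Hoxa cluster, rose from 1.91 and 1.67 CPM to 7.16 and 8.30 CPM. At the posterior end of the same cluster Hottip fell from 6.55 and 4.77 CPM to 0.640 and 0.760 CPM. Hand2os1 fell from 10.3 and 7.92 CPM to 0.349 and 1.87 CPM beside Hand2, a limb and heart bHLH factor (20.8 and 22.5 CPM against 3.67 and 5.202 CPM). Without knowledge of the strand setting, reads of antisense or overlapping partners cannot be told apart.

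Other non-coding RNAs that rose were Wincr1, from 0.489 and 0.787 CPM to 9.08 and 15.96 CPM (log2 difference 4.30, SE 0.39, edgeR adjusted p = 7.13e-07), and Lncenc1, from 1.96 and 2.17 CPM to 11.6 and 9.94 CPM (2.38, SE 0.20, adjusted p = 2.34e-07). Among predicted genes, Gm29337 had no read in WT and 8.03 and 10.4 CPM in DKO, at least 125-fold higher, and Gm13056 rose from 1.42 and 1.77 CPM to 9.49 and 8.01 CPM. Gm49083 had 23.1 and 25.4 CPM in WT and no read in DKO, at least 277-fold lower, and Gm21847 at least 92.5-fold lower. Rn7sk, the RNA that holds the elongation factor P-TEFb inactive, fell from 11.9 and 11.3 CPM to 2.39 and 1.29 CPM; it is a short structured RNA, and its recovery depends on the library preparation. Snhg5 and Snhg20, hosts of small nucleolar RNAs, rose, from 18.6 and 18.3 CPM to 25.5 and 45.6 CPM and from 7.78 and 7.43 CPM to 9.78 and 19.2 CPM. Both calls were lost on TPM and without the DKO library of day 4. The hosts Snhg8 and Snhg6 (adjusted p = 0.193 and 0.127) and the RNA Epb41l4aos (adjusted p = 0.146) were not called averaged over days. At day 4 all 3 were higher in DKO, Snhg8 by 1.00, Snhg6 by 0.66 and Epb41l4aos by 1.02 (largest edgeR adjusted p = 0.000167).

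MicroRNA host transcripts moved in both directions. Dnm3os, which carries a pair of microRNA hairpins, fell from 99.5 and 94.0 CPM to 1.69 and 7.77 CPM (log2 difference -4.44, SE 0.37, edgeR adjusted p = 1.39e-05). Fitted on the 4 DMSO libraries alone, the log2 difference was -4.62 for Dnm3os (adjusted p = 0.127) and -3.16 for Hand2os1 (adjusted p = 0.0699), beside -4.44 and -3.05. Mir99ahg, which carries 3, rose from 2.74 and 2.95 CPM to 10.1 and 7.01 CPM (1.60, SE 0.27, adjusted p = 0.000184), a call lost on TPM. H19 carries the hairpin of miR-675. Meg3, Rian and Snhg20 also hold microRNAs, which are not printed. Some of the mature microRNAs inside Dnm3os, H19 and Mir99ahg, by position and strand, are shown because their host transcript changed. The mature forms themselves were not measured. They are RefSeq sequences on GRCm38.p6, 5′ to 3′, with the seed (bases 2 to 8) in capitals. They have different seeds. The Dnm3os hairpins give miR-199a-5p at chr1:162217844-162217866 and miR-214-3p at chr1:162223438-162223459, plus strand. H19 gives miR-675-5p at chr7:142577112-142577133, minus strand. Mir99ahg gives miR-99a-5p at chr16:77598940-77598961, let-7c-5p at chr16:77599672-77599693 and miR-125b-5p at chr16:77646279-77646300, plus strand.
mmu-miR-199a-5p: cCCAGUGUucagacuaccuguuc
mmu-miR-199a-3p: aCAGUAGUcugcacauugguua
mmu-miR-214-3p: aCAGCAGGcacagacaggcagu
mmu-miR-675-5p: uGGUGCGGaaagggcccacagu
mmu-miR-99a-5p: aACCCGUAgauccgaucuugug
mmu-let-7c-5p: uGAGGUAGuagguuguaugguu
mmu-miR-125b-5p: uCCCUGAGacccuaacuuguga

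The genotype difference was then taken at each day, which uses different libraries. At day 2, 11303 genes were called (68.1%), and at day 4 10697 (64.5%). Of the genes called at day 2, 79.8% were called in the same direction at day 4 and 1.80% in the opposite one; of those called at day 4, 84.3% were called in the same direction at day 2. In the 8 libraries treated with MGH-CP1, 65.2% of the genes called in DMSO were called the same way and 4.72% the opposite way (background 59.5% called in either direction). For genes called by 4-fold or more in DMSO the shares were 79.0% and 1.68%.

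The size of the difference changed between days for 3062 genes (18.5%), with 1623 higher (9.78%) and 1439 lower (8.67%) at day 4 than at day 2. DESeq2 gave 801 lower. Changes of 4-fold or more were 211 higher (1.27%) and 25 lower (0.151%). The spread for this test comes from the inhibitor libraries, and each single DMSO library is taken to have the same spread. The 4 listed genes with the smallest p in the upward direction all had a low value in the DKO library of day 2. Their gene lengths ran from 11542 bases for Mme to 18378 bases for Nfat5. Over all tested genes of 7004 bases or more, a set that includes much shorter genes, the median change between days was -0.065. The part of length in the day difference was not tested. Mga, a MAX-binding T-box factor, measured 166 and 163 CPM in WT and 11.9 and 71.4 CPM in DKO (difference between days 2.61, edgeR adjusted p = 2.05e-13). The surface peptidase Mme measured 299.6 and 301 CPM against 23.7 and 83.0 CPM (1.80, adjusted p = 2.23e-13). The BMP receptor Bmpr2 measured 157 and 158 CPM against 22.6 and 101 CPM (2.15, adjusted p = 3.35e-13), and Nfat5, the osmotic stress factor, 322 and 308 CPM against 65.6 and 170.0 CPM (1.44, adjusted p = 7.58e-12). Xist, the RNA that coats the inactive X chromosome, measured 1262 and 1264 CPM in WT and 41.0 and 368 CPM in DKO (3.17, adjusted p = 3.95e-06). Its overall fall was not called in the 4 DMSO libraries alone (log2 difference -3.38, edgeR adjusted p = 0.295), beside -2.94 in the full fit. The Y-linked genes Ddx3y, Kdm5d and Eif2s3y had at most 1 read in any of the 4 libraries. The genes named by smallest p in the downward direction were Nfe2l1, given above, and 3 others: Ryk, a Wnt coreceptor, measured 245 and 252 CPM against 589 and 419 CPM, Smad4, the common SMAD, 100.5 and 104 CPM against 169 and 115 CPM, and the non-coding 2900097C17Rik 289 and 284 CPM against 236 and 167 CPM. The DKO library of day 2 also had the fewest genes detected, the lowest scaling factor (0.868, against 0.924 to 0.965 in the others) and the highest mitochondrial ribosomal RNA share (0.128%, against 0.0764% to 0.0832%), and the part of that library in the day difference was not tested.

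**Figure D5:**
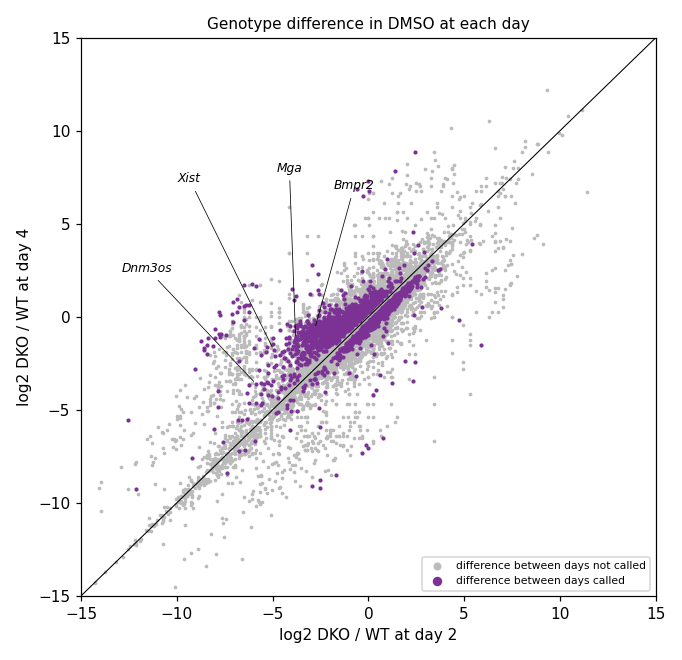
Genotype difference in DMSO at day 2 (horizontal) and day 4 (vertical), each as log2(DKO/WT), for all 16595 genes tested; purple marks the 3062 genes whose difference changed between days, and the line marks equality. Mga, Bmpr2, Xist and Dnm3os lie above the line: their deficit in DKO was smaller at day 4.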

How the data were processed

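Raw read counts per gene were deposited by the authors; per the submitters' processing notes they were made with featureCounts 1.5.2 on mm10. TPM values, also deposited by the authors, are counts over gene length rescaled to a fixed total. The aligner and the strand setting are not given in the sources used here. Genes were tested with edgeR 4.0.16 in R 4.3.3 (quasi-likelihood, TMM scaling) after a filter (minimum count 10, minimum total 15) that kept 16595 genes and removed 15573. The model had 6 coefficients over all 12 libraries: a mean per genotype and treatment and a day term per genotype, with 6 residual degrees of freedom and a common biological coefficient of variation of 0.0984. A gene was called at an adjusted p under 0.05. The day difference and the single-day tests used a mean per group. The drug-treated repeats carry replicate numbers but the DMSO libraries do not, so DMSO libraries were matched by day alone, through the day terms. A 95% exact binomial interval, or a floor of 3 counts over a group, was used for genes with few reads.

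Lists of transcription factors, secreted factors, receptors, non-coding RNAs and lineage markers were written from general knowledge; members and lists were chosen with earlier results of these data known. The rule for named genes took, per class, the 7 higher and 7 lower called genes with the largest change, a mean of at least 4 CPM and no overlap between genotypes, the 3 most abundant genes not called, up to 3 per direction in each lineage list, and the 4 per direction with the strongest day difference. Other genes were named after their values were seen. Alternatives were other scaling, DESeq2 1.42.0, no filter, fewer libraries, another model, limma 3.58.1 on log2(TPM + 1) or log2(TPM + 0.1), a replicate block, and removal of small RNA genes. The procedure was tested on simulated data for the DMSO comparison over 15901 genes: it recovered 68% of 1.5-fold, 84% of 2-fold and 100% of 4-fold changes, and 3.3% of its calls were false. Only 50 genes per fold were changed there. Every gene had the same spread and all libraries shared 1 profile, without day, drug or library effects. In the data 67.5% of genes were called, so these rates do not carry over to them. Promoters and microRNAs were matched by symbol to RefSeq tables. Some genes are not reported here.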

Additional observations from a re-analysis of the deposited data

Results flagged for a closer look

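The genotype difference in DMSO changed between day 2 and day 4 for 3062 genes by edgeR's quasi-likelihood test of that difference. Among the genes named by rule, the log2 difference was more positive at day 4 by 0.71 for Lats1, 0.32 for Mif, 1.10 for Spp1, 0.37 for Sdc2 and 2.61 for Mga. It was more positive by 1.80 for Mme, 2.15 for Bmpr2 and 1.44 for Nfat5. Among non-coding RNAs the shift was 0.87 for Snhg5, 1.04 for Snhg20, 1.13 for Snhg8, 0.71 for Snhg6, 2.28 for Dnm3os, 2.78 for Hand2os1 and 3.17 for Xist. It was negative for Nfe2l1 (-0.59), Krt7 (-1.51), Nes (-0.82), Ncam1 (-0.54), Ryk (-0.53), 2900097C17Rik (-0.47) and Smad4 (-0.61). In DKO cells given the inhibitor, Mga measured 102 to 121 CPM and Dnm3os 43.8 to 67.0 CPM, above both DKO DMSO libraries. Each day holds 1 DMSO library per genotype, so day and library cannot be told apart.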

How the results depend on the processing

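On TPM, limma gave fewer higher calls: 3242 genes with a pseudocount of 1 and 3225 with 0.1, against 5426, so that 35.3% and 34.6% of calls were higher against 48.4%. With the pseudocount of 1, 225 genes rose and 1197 fell by 4-fold or more. On the same 2 scales 91 and 91 transcription factors, 57 and 56 receptors and 8 and 7 non-coding RNAs rose. The median over all genes was -0.23 and -0.28 there, against -0.06. The 4 DMSO libraries alone gave 21 non-coding RNAs lower (35 in the full fit), and DESeq2 gave 801 genes lower at day 4 than at day 2 (1439 by edgeR). Leaving out 1 DMSO library at a time left 9 to 26 non-coding RNAs higher, with 9 without the DKO library of day 4. Over the same omissions 4478 to 5366 genes rose and 5035 to 5742 fell.

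The replicate block, a term for the repeat number of the drug-treated libraries, gave 5310 higher and 5664 lower genes; among the named genes it ended only the call of Mcam. The DMSO libraries carry no repeat number; they are matched between genotypes by day, which the full fit holds as a term per genotype.

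Directions turned mainly for genes not called. Without the DKO library of day 4 the log2 difference was 0.09 for Nfe2l1, 0.10 for Klf6, -0.04 for Mif, -0.26 for Cxcl1, -0.25 for Epb41l4aos, -0.28 for Snhg8, -0.14 for Snhg6 and -0.03 for Mcam, the only called gene among them (0.43). Without the DKO library of day 2 it was -0.39 for Nfe2l1, -0.34 for Klf6, 1.06 for Mif, 0.25 for Cxcl1, 1.67 for Epb41l4aos, 1.14 for Snhg8, 0.75 for Snhg6 and 0.87 for Mcam. On both TPM scales it was -0.10 for Nfic, -0.13 for Sdc2 and -0.26 for Cxcl1. Cxcl1 was at -0.02 with DESeq2 or its size factors, -0.01 unfiltered or without small RNA genes, -0.04 in the DMSO libraries alone, -0.00 with 8 group means and -0.11 without the WT library of day 4. The cause was not tested. Without either DKO library, Hoxd11, Pdgfd, Il1rl2, Thbs4, Gm49083 and Gm21847 lost their calls, as did Batf2, Hoxd8, Tnfsf10, Ccrl2 and Meg3 without that of day 2 and Hoxd10 without that of day 4. With n = 2 per genotype, small changes and genes of few reads are the least certain.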

Other observations

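Liver transcripts, looked at after values were seen, were present at low counts. Alb, serum albumin, had 94 and 89 reads in the WT DMSO libraries and none in the DKO DMSO libraries. In the WT libraries given the inhibitor it had 106 to 123 reads in 3 and 1464 in the other. Myh6, a cardiac myosin heavy chain, had 23 reads in the WT DMSO library of day 2 and 155 in 1 DKO library given the inhibitor.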
